A study of Mus musculus with 16 samples.

Results

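The genes described here are 10 that make or sense eicosanoids, chosen by their symbol out of 22287 genes in the table. They are the prostanoid enzymes Ptgs1, Ptgs2, Ptges, Hpgds and Tbxas1, the leukotriene genes Alox5, Alox5ap and Ltc4s, and the prostaglandin E2 receptors Ptger2 and Ptger4. Each symbol matched 1 row, and all 10 passed the filter on low counts that left 12514 genes for the tests. RNA-seq had been done on bone marrow derived macrophages (BMDMs) of C57BL/6J mice aged 8 weeks, grown from bone marrow for 7 days. Cultures called GM had received GM-CSF at 20 ng/ml, and those called M had received M-CSF at 50 ng/ml. The dish was either a treated, hydrophilic tissue culture dish (TC) or an untreated, hydrophobic polystyrene dish (noTC). After maturation, the cells received vehicle (steady state) or 100 ng/ml LPS, a bacterial cell wall lipid that activates TLR4, for 3 h. Each growth factor was combined with each dish (GM-TC and GM-noTC, or M-TC and M-noTC), without and with LPS, which gave 8 groups of 2 libraries, 16 in all. The comparisons below draw on the same 8 groups, so several share libraries. All cells were of the same strain and had no engineered allele. GM cultures are mixed by surface markers, and in bulk RNA more cells of a type and more RNA per cell cannot be told apart.

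Eicosanoids are signalling lipids made from arachidonic acid that phospholipases release from membranes. The cyclooxygenases COX-1 (Ptgs1), present in resting cells, and COX-2 (Ptgs2), induced by inflammatory stimuli, turn it into prostaglandin H2. Terminal enzymes then make prostaglandin E2 (Ptges), prostaglandin D2 (Hpgds) or thromboxane A2 (Tbxas1). In the other branch, 5-lipoxygenase (Alox5) and the membrane protein FLAP (Alox5ap), which presents arachidonic acid to it, make leukotriene A4, and Ltc4s couples glutathione to it to form leukotriene C4. EP2 (Ptger2) and EP4 (Ptger4) are receptors for prostaglandin E2 that raise cyclic AMP, through which macrophages respond to their own product.

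Total counts per library lay between 17527802 and 31458363, at which 3 counts equal 0.0954 to 0.171 CPM (counts scaled to a fixed library total). Levels below are CPM scaled with edgeR's TMM factors unless stated otherwise, and p-values were adjusted by the Benjamini-Hochberg method over all 12514 genes in edgeR's quasi-likelihood fit. The sum of 8 macrophage markers lay between 19500 and 45600 CPM by library size, of which Lyz2 held up to 41200 CPM. On TC dishes at steady state, GM cells had more Lyz2 (39700 against 26900 CPM in M cells), Itgam (2100 against 1020) and Mertk (110 against 70.2). They had less Csf1r (943 against 3970), Adgre1 (248 against 1140) and Cd68 (872 against 1410). Fcgr1 (52.9 against 164) and Cd14 (186 against 592) were also lower in GM cells. Markers of other cells moved with the growth factor, and some also with LPS, by library size. The sum of 10 neutrophil markers lay between 12 CPM in an M library and 1050 CPM in a GM library, of which Mmp8 held up to 1020 CPM. Ngp reached 13.7, S100a9 9.56, S100a8 7.83 and Ltf 4.41 CPM, each in a GM library. Camp, Elane, Cxcr2, Ly6g and Mpo were at 0.964 CPM or less. That of 12 mast cell and basophil markers lay between 8.25 and 78.9 CPM, most of it Kit and Hdc. The defining genes Cpa3 and Fcer1a had at most 1.37 and 0.0416 CPM, and Tpsab1 and Mcpt4 had no counts. The sum of 7 dendritic cell markers lay between 1.61 and 1560 CPM, of which Ccl22 held up to 1500, Ccr7 up to 48.8 and Clec9a up to 35.9 CPM. The other dendritic cell markers were at 6.43 CPM or less. Upon LPS in GM-TC, the dendritic cell sum went from 122 and 128 to 1140 and 1240 CPM. There the mast cell and basophil sum rose from 36.9 and 41.9 to 77.6 and 78.9 CPM. The neutrophil sum fell from 818 and 828 to 542 and 563 CPM. Each of these moves was mostly that of 1 gene, by mean CPM Ccl22 (76.9 to 1130), Hdc (2.32 to 56.7) and Mmp8 (806 to 527). Ccr7 rose with its sum (10.5 to 44.9). Against their sums, Clec9a (35.2 to 7.69) and Kit (33.4 to 18) fell. Likewise S100a8 (2.84 to 5.48), S100a9 (3.52 to 4.84) and Ngp (7.13 to 11.8) rose. The sum of 6 megakaryocyte and platelet markers lay between 6.31 and 57 CPM, with Pf4 at up to 32.1 CPM. That of 5 eosinophil markers stayed at or below 3.15 CPM, with Prg3 at 0, and that of 7 fibroblast markers at or below 32.3 CPM. The steady state TC libraries also held heart muscle transcripts, a list chosen after seeing the data, with 29.3 to 98.2 CPM for 12 genes against at most 1.55 CPM in the other 12 libraries. Every steady state dish comparison and every LPS comparison on TC dishes sets these TC libraries against libraries without such transcripts. What else came with that difference cannot be told apart there from the dish or LPS. The libraries of GM-TC differed from each other more than those of other groups, with a chi-square per degree of freedom of 12.9 against 1.92 to 5.27. The part of these markers in the results below was not tested.

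The promoters of both cyclooxygenases and of the synthases for prostaglandins E2 and D2 are shown, since LPS raised Ptgs2 and Ptges and lowered Ptgs1 and Hpgds, from 250 bases before to 50 bases after the start in RefSeq (GRCm38.p6). Among the 10 genes, 9 had such an entry, and Alox5ap had none. By GENCODE M21, Tbxas1 and Alox5 lie on chromosome 6, Alox5ap on chromosome 5, Ltc4s on chromosome 11, Ptger2 on chromosome 14 and Ptger4 on chromosome 15. Ptgs2 lies on chromosome 1 (chr1:150099781-150100080, + strand), Ptges on chromosome 2 (chr2:30903248-30903547, - strand), Ptgs1 on chromosome 2 (chr2:36230176-36230475, + strand) and Hpgds on chromosome 6 (chr6:65144681-65144980, - strand). Each runs 5′ to 3′ along the gene, and capitals mark a GC box (GGGCGG), a cAMP response element half-site (TGACG), an E-box (CACGTG) or a C/EBP site (TTNCGNAA), on either strand.
Ptgs2: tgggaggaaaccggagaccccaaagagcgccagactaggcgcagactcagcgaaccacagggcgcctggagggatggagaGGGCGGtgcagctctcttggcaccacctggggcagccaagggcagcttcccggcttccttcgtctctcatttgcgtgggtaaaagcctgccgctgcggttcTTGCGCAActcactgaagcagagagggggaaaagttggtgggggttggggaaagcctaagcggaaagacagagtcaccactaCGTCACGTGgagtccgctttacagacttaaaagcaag
Ptges: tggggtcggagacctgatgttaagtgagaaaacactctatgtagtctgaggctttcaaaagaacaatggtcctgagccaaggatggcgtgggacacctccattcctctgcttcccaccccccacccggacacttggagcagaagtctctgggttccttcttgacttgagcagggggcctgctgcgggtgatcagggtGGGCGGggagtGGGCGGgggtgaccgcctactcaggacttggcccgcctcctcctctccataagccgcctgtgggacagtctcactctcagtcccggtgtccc
Ptgs1: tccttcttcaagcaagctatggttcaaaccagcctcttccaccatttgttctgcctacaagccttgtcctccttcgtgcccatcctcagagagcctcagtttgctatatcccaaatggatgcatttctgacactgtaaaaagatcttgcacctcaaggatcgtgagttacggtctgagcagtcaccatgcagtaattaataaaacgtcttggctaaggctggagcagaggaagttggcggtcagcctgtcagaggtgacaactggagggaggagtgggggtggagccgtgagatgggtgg
Hpgds: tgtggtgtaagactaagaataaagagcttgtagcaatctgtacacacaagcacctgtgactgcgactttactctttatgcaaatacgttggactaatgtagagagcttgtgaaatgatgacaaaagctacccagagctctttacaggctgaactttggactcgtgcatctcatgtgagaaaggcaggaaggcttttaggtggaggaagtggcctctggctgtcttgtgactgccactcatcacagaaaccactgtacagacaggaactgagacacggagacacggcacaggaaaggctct
In the Ptgs2 window, 1 GC box began at -170 and 1 C/EBP site began at -69 from the start, and a half-site at 14 overlapped an E-box at 17. A C/EBP site was found in 2.47% of 32851 promoters of this length, a half-site in 20.8% and an E-box in 7.15%. The Ptges window held 2 GC boxes, at -53 and -42, against 35.7% of promoters with at least 1. Neither of these windows matched the TATA box (TATAAA, 13.6% of promoters), the AP-1 site (TGANTCA, 7.81%) or the NF-kappaB consensus (6.93%). The Ptgs1 window held 6 CpG dinucleotides and that of Hpgds 5, comparing with 16 in Ptgs2, 10 in Ptges and a median of 7 over all promoters, and neither Ptgs1 nor Hpgds matched any of the 4 motifs in capitals. Among the promoters not shown, that of Ptger4 held 25 CpG and 4 GC boxes and that of Alox5 7 CpG and 1 GC box, and LPS lowered both genes in GM cells. Those of Ltc4s and Tbxas1 held 6 and 4 CpG and none of the 4 motifs. The window of Ptger2 ended before the gene's start in GENCODE M21, whose transcripts did not hold its bases after the RefSeq start. It held 3 CpG and none of the 4 motifs. All of these are matches of letters and not sites of binding.

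LPS raised Ptgs2 in each of the 4 cultures, where it then had the highest level per kilobase of exon among the 10 genes. On TC dishes the GM libraries had 2.27 and 1.81 CPM at steady state and 1610 and 1710 CPM upon LPS. In M cells on TC dishes it was 1.48 and 1.20 CPM at steady state and 3380 and 3810 CPM upon LPS. The groups were far apart, and the log2 fold change was 9.68 in GM-TC (standard error 0.13, edgeR adjusted p = 3.1e-24) and 11.39 in M-TC (standard error 0.14, edgeR adjusted p = 3.5e-25), a 2690-fold rise in the latter. On noTC dishes the level went from 12.1 and 12.4 CPM to 1790 and 1970 CPM in GM cells. In M cells there it went from 13 and 10.6 CPM to 3210 and 3750 CPM. The log2 fold change was 7.26 in GM-noTC (edgeR adjusted p = 1.1e-23) and 8.22 in M-noTC (edgeR adjusted p = 1.7e-24). All 4 LPS groups lay above 1600 CPM, and every M library upon LPS lay above every GM library.

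Upon LPS, GM cells had less Ptgs2 than M cells, by a log2 fold change of -1.11 on TC dishes (standard error 0.074, edgeR adjusted p = 1.2e-11) and -0.89 on noTC dishes (standard error 0.074, edgeR adjusted p = 5.4e-10). At steady state the growth factors did not differ past the threshold, with 0.60 on TC (standard error 0.28, edgeR adjusted p = 0.067) and 0.06 on noTC (standard error 0.11, edgeR adjusted p = 0.66). The LPS response itself was smaller in GM than in M cells on TC dishes, by 1.71 on the log2 scale (edgeR difference of effects -1.71, adjusted p = 4.8e-05). On noTC dishes that difference was -0.95 (edgeR adjusted p = 7.9e-06), and 0.18 (edgeR adjusted p = 0.67) after the subtraction described next.

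Ptgs2 was the gene with the largest dish difference at steady state among the 10, with 6.05-fold more in GM-noTC than in GM-TC and 8.76-fold more in M-noTC than in M-TC. The log2 fold changes were 2.60 (standard error 0.18, edgeR adjusted p = 1.6e-09) and 3.13 (standard error 0.18, edgeR adjusted p = 3.8e-11). Upon LPS the dishes differed by 0.18 in GM (edgeR adjusted p = 0.26) and -0.04 in M cells (edgeR adjusted p = 0.72). By library size, the steady state excess on noTC dishes was 11.5 CPM in GM cells, which is 0.671% of the mean of 1710 CPM in the 10 libraries outside the steady state TC groups and outside GM-noTC itself. In M cells the excess was 14.5 CPM, or 0.846% of the mean in the corresponding 10 libraries. Genes under 1 CPM on TC dishes and at 100 CPM or more in those libraries, of which there were 15 in GM and 21 in M with none of the 10 genes among them, had a median excess of 0.675% in GM and 0.6% in M. When that share was taken off the steady state libraries on noTC dishes, the dish difference of Ptgs2 was -0.01 in GM (edgeR adjusted p = 1.0) and 1.66 in M cells (edgeR adjusted p = 8.3e-05). After the same subtraction, GM-noTC had less Ptgs2 than M-noTC (log2 fold change -1.07, edgeR adjusted p = 0.00078), and the LPS response was 9.87 in GM-noTC and 9.69 in M-noTC. The LPS response on noTC minus that on TC dishes went from -2.42 to 0.19 in GM (edgeR adjusted p = 5.0e-08 and 0.93) and from -3.18 to -1.70 in M cells (edgeR adjusted p = 6.5e-10 and 0.00054). The share was taken as fixed at its median, so the p-values after subtraction do not carry its spread over the genes that set it. The part of reads of other libraries in these levels was not tested further.

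**Figure D1:**
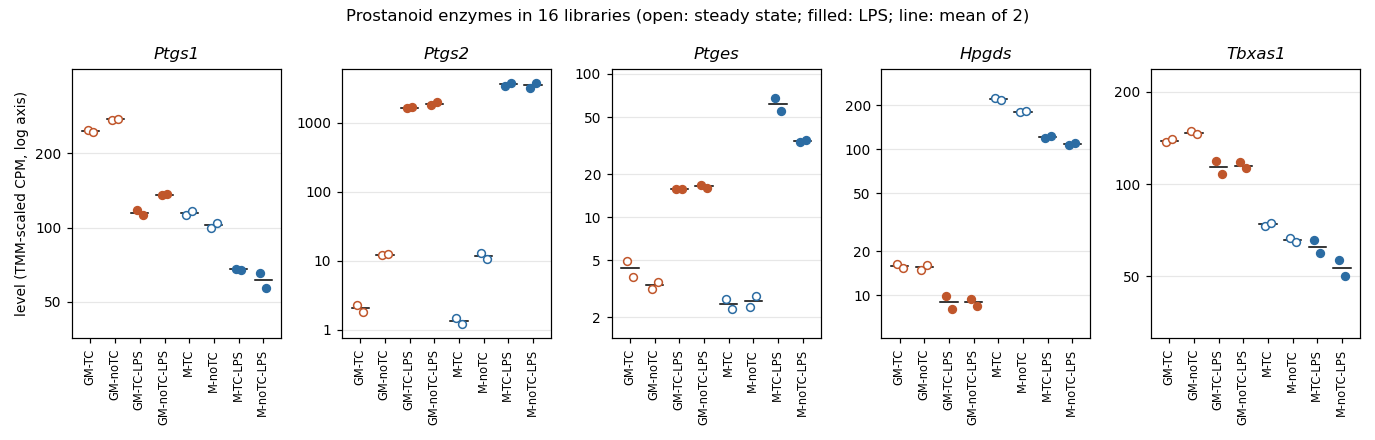
Level of each prostanoid enzyme (y axis, TMM-scaled CPM on a log axis) in the 8 groups (x axis), with a point per library, orange for GM and blue for M, open at steady state and filled upon LPS, and a line at the mean of 2. Ptgs2 lies between 1.20 and 13 CPM at steady state and between 1610 and 3810 CPM upon LPS, and Hpgds is at 16.3 CPM or less in GM libraries and at 107 CPM or more in M libraries.

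Ptges, the enzyme that makes prostaglandin E2 in step with COX-2, also rose upon LPS, most in M cells. On TC dishes GM cells had 4.95 and 3.83 CPM, and with LPS 15.7 and 15.7 CPM. Those on noTC dishes had 3.14 and 3.55 CPM, and with LPS 16.9 and 16 CPM. The log2 fold changes in GM cells were 1.86 on TC (standard error 0.14, edgeR adjusted p = 1.1e-10) and 2.29 on noTC (standard error 0.14, edgeR adjusted p = 2.8e-12). M-TC went from 2.67 and 2.28 CPM to 68.2 and 54.9 CPM. M-noTC went from 2.36 and 2.81 CPM to 33.6 and 34.6 CPM. These were log2 fold changes of 4.64 (standard error 0.13, edgeR adjusted p = 1.3e-18) and 3.70 (standard error 0.13, edgeR adjusted p = 5.1e-17). At steady state Ptges was higher in GM-TC than in M-TC (0.81, edgeR adjusted p = 0.00079) and did not pass on noTC dishes (0.36, edgeR adjusted p = 0.089). Upon LPS it was lower in GM than in M cells, by -1.97 on TC (edgeR adjusted p = 2.0e-13) and -1.05 on noTC (edgeR adjusted p = 1.3e-08). The growth factors' order at 3 h of LPS was thus opposite to that at steady state on TC dishes, and the response differed between them by -2.78 on TC (edgeR adjusted p = 7.1e-10) and -1.41 on noTC (edgeR adjusted p = 1.2e-05).

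M cells on noTC dishes reached less Ptges upon LPS than those on TC dishes, with a log2 fold change of -0.85 (standard error 0.096, edgeR adjusted p = 1.0e-06) and no overlap between the groups. GM cells showed no such gap (0.07, edgeR adjusted p = 0.88), and the dish difference upon LPS differed between the growth factors by 0.92 (edgeR adjusted p = 0.00025). The LPS response of Ptges in M cells was 0.94 lower on noTC than on TC dishes on the log2 scale (-0.94, edgeR adjusted p = 0.0059), which did not pass without M-noTC replicate 2 (-0.78, edgeR adjusted p = 0.091) or without M-TC replicate 2 (-0.82, edgeR adjusted p = 0.063).

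Ptgs1, the constitutive cyclooxygenase, fell upon LPS in all 4 cultures and was higher in GM than in M cells throughout. On TC dishes GM cells had 249 and 243 CPM at steady state and 118 and 112 CPM upon LPS, and on noTC dishes 273 and 275 CPM, then 135 and 137 CPM. For M cells the TC libraries held 112 and 117 CPM before and 68.2 and 67.6 CPM after LPS, and the noTC libraries 100 and 104 CPM, then 65.7 and 57 CPM. No library upon LPS reached a steady state library of its own culture. The log2 fold changes were -1.10 in GM-TC (standard error 0.058, edgeR adjusted p = 1.9e-13) and -1.01 in GM-noTC, and M cells had -0.75 on TC and -0.74 on noTC dishes. GM exceeded M cells by 1.10 on TC and 1.42 on noTC dishes at steady state, and by 0.76 and 1.15 upon LPS, with the largest edgeR adjusted p of these at 3.6e-10. Per kilobase of exon, Ptgs1 exceeded Ptgs2 at steady state, with 63.4 against 0.446 CPM per kb in GM-TC and 29.5 against 0.292 in M-TC. Upon LPS Ptgs2 stood far above it, with 785 against 17.5 CPM per kb in M-TC-LPS.

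The dish changed Ptgs1 little, and in opposite directions in the 2 kinds of cells. The log2 fold change of noTC over TC was 0.24 in GM upon LPS (edgeR adjusted p = 0.026) and -0.16 in M cells at steady state (edgeR adjusted p = 0.043). Neither call held in any of the 4 fits that left out 1 of its libraries, with edgeR adjusted p from 0.094 to 0.29 for the former and from 0.063 to 0.26 for the latter. The dish difference in GM minus that in M cells was 0.32 at steady state (edgeR adjusted p = 0.012) and 0.39 upon LPS (edgeR adjusted p = 0.0052). At steady state it did not pass without M-noTC replicate 1 (0.29, edgeR adjusted p = 0.071) or M-TC replicate 2 (0.28, edgeR adjusted p = 0.078).

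Hpgds, the haematopoietic prostaglandin D2 synthase, showed the widest gap between the growth factors among the 10 genes in each of the 4 settings. M cells held 224 and 219 CPM on TC and 179 and 182 CPM on noTC dishes. GM cells had 16.3 and 15.4 CPM in GM-TC and 14.9 and 16 CPM in GM-noTC, so that GM libraries lay 14-fold lower on TC dishes and 11.7-fold lower on noTC dishes. Upon LPS, M cells kept 120 and 123 CPM on TC and 107 and 110 CPM on noTC dishes, while GM cells were at 9.82 and 8.08 CPM on TC and 9.38 and 8.39 CPM on noTC. The growth factor difference was -3.81 (TC) and -3.54 (noTC) at steady state and -3.76 (TC) and -3.61 (noTC) upon LPS on the log2 scale, with standard errors of 0.070 to 0.079 and an edgeR adjusted p of 3.8e-20 or less. LPS lowered it in each culture, by -0.83 (TC) and -0.80 (noTC) in GM and by -0.87 (TC) and -0.73 (noTC) in M cells, with an edgeR adjusted p of 9.7e-08 or less. The LPS response did not differ past the threshold between the growth factors (0.04 on TC, edgeR adjusted p = 0.79, and -0.07 on noTC, edgeR adjusted p = 0.68). M-noTC had less than M-TC at steady state (-0.30, standard error 0.056, edgeR adjusted p = 0.00035).

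Tbxas1, thromboxane A synthase, was higher in GM cells, at 137 and 140 CPM on TC and 149 and 146 CPM on noTC dishes, where M cells had 73.2 and 74.7 CPM, and 66.6 and 64.6 CPM. The log2 fold change of GM over M lay between 0.86 and 1.17 in the 4 settings, with an edgeR adjusted p of 1.5e-10 or less. LPS lowered it slightly in each culture, by -0.24 in M-TC to -0.35 in GM-noTC. The smallest of these, in M-TC (edgeR adjusted p = 0.0028), did not pass without M-TC-LPS replicate 2 (-0.17, edgeR adjusted p = 0.056). On noTC dishes M cells had less than on TC dishes upon LPS (-0.23, edgeR adjusted p = 0.020), which did not pass without M-noTC-LPS replicate 2 (-0.14, edgeR adjusted p = 0.26) or without M-TC-LPS replicate 1 (-0.15, edgeR adjusted p = 0.24). At steady state the difference was -0.17 (edgeR adjusted p = 0.050, just under the threshold), and it passed in no fit with 1 of its libraries left out.

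**Figure D2:**
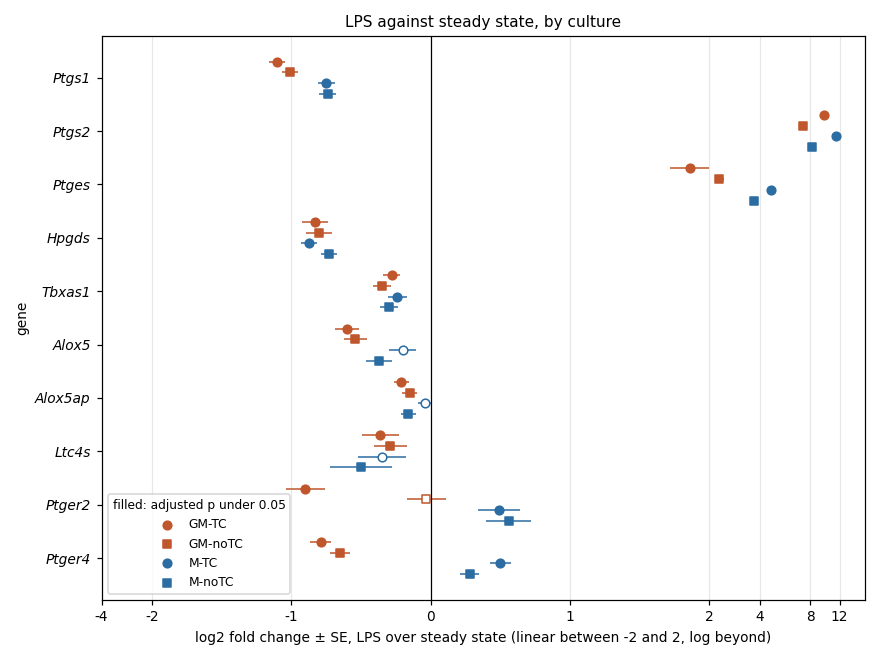
Log2 fold change of LPS over steady state (x axis, linear between -2 and 2 and logarithmic beyond) for the 10 genes (y axis) in the 4 cultures, with bars of 1 standard error and filled points at an adjusted p under 0.05. Ptgs2 and Ptges lie right of 0 in all 4 cultures, Ptger2 and Ptger4 lie right of 0 only in M cells under TMM scaling, and the other 6 genes lie left of it.

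The leukotriene genes fell upon LPS or did not pass the threshold, and Ltc4s was the one with the largest difference between GM and M cells. GM cells had 35 and 36.6 CPM of Alox5 on TC dishes, which became 23.4 and 23.9 CPM upon LPS, and on noTC dishes 43.6 and 46.6 CPM, which became 31.1 and 31.1 CPM. M cells had 23.5 and 19.6 CPM on TC dishes, then 17.2 and 20.4 CPM, and 25.2 and 24.6 CPM on noTC dishes, then 18.1 and 20.6 CPM. It fell by -0.60 in GM-TC (edgeR adjusted p = 4.2e-06), -0.54 in GM-noTC (edgeR adjusted p = 7.2e-06) and -0.37 in M-noTC (edgeR adjusted p = 0.0012) on the log2 scale. In M-TC the change of -0.20 did not pass (edgeR adjusted p = 0.070), and the groups overlapped. It did pass without M-TC replicate 2 (-0.32, edgeR adjusted p = 0.012) or M-TC-LPS replicate 2 (-0.32, edgeR adjusted p = 0.018). GM exceeded M cells by 0.74 and 0.86 at steady state and by 0.34 and 0.69 upon LPS, on TC and noTC dishes in turn. The smallest of these, on TC dishes upon LPS (edgeR adjusted p = 0.0047), did not pass without M-TC-LPS replicate 1 (0.21, edgeR adjusted p = 0.12).

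Alox5 was the only gene of the 10 besides Ptgs2 called higher on noTC dishes in GM cells at steady state (0.33, standard error 0.082, edgeR adjusted p = 0.014). It was also higher there upon LPS (0.39, standard error 0.091, edgeR adjusted p = 0.017). The first call was lost without GM-noTC replicate 2 (0.28, edgeR adjusted p = 0.17). The second was lost in each of the 4 fits that left out 1 of its libraries, at 0.38 to 0.41 and an edgeR adjusted p of 0.096 to 0.16. In all 4 settings the mean was higher on noTC dishes, but in M cells neither difference passed (0.21, edgeR adjusted p = 0.077, and 0.05 upon LPS, edgeR adjusted p = 0.80).

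Alox5ap, which encodes FLAP, varied least of the 3 leukotriene genes and was the most abundant per kilobase of the 10 genes in each steady state group, at 119 to 152 CPM per kb. Its levels lay between 146 and 183 CPM in GM libraries and between 186 and 220 CPM in M libraries, without overlap. GM minus M was -0.20 and -0.24 at steady state and -0.37 and -0.24 upon LPS, with an edgeR adjusted p of 0.0021 or less. LPS lowered it by -0.21 in GM-TC (edgeR adjusted p = 0.0017). The falls of -0.15 in GM-noTC (edgeR adjusted p = 0.015) and -0.16 in M-noTC (edgeR adjusted p = 0.0098) were less secure. The former was lost in each of the 4 fits that left out 1 of its libraries (edgeR adjusted p of 0.056 to 0.12), and the latter without M-noTC replicate 1 (-0.12, edgeR adjusted p = 0.13) or M-noTC-LPS replicate 2 (-0.15, edgeR adjusted p = 0.060). A dish difference of 0.15 in M cells at steady state (edgeR adjusted p = 0.040) was likewise lost in each of its 4 such fits, at edgeR adjusted p of 0.082 to 0.30.

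Ltc4s, leukotriene C4 synthase, was higher in GM than in M cells in all 4 settings. At steady state GM cells had 26.8 and 32.7 CPM on TC and 29.6 and 30.6 CPM on noTC dishes, against 9.85 and 8.34 CPM and 5.02 and 3.88 CPM for M cells. Upon LPS the GM libraries held 24.1 and 22.6 CPM on TC and 26.5 and 22.9 CPM on noTC dishes, and the M libraries 6.89 and 7.38 CPM, and 2.16 and 3.99 CPM. Every GM library lay above every M library. The log2 fold change of GM over M was 1.72 on TC and 2.78 on noTC dishes at steady state (edgeR adjusted p = 3.1e-10 and 1.4e-13), and 1.71 and 3.00 upon LPS (edgeR adjusted p = 2.4e-09 and 1.6e-12). M cells had less on noTC than on TC dishes, by a log2 fold change of -1.05 at steady state (standard error 0.17, edgeR adjusted p = 4.5e-05) and -1.21 upon LPS (standard error 0.22, edgeR adjusted p = 0.00031). In GM cells the dish difference was 0.01 and 0.08 (edgeR adjusted p = 0.98 and 0.86), and it differed between the growth factors by 1.06 at steady state (edgeR adjusted p = 0.0013) and 1.29 upon LPS (edgeR adjusted p = 0.0017). Mast cells and basophils, which also use this enzyme, had the marker levels given above, Kit at up to 36.3 CPM and Cpa3 at up to 1.37 CPM by library size, and their part was not tested.

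LPS changes of Ltc4s were negative in all 4 cultures and passed the threshold in 3. They were -0.36 in GM-TC (edgeR adjusted p = 0.016), -0.29 in GM-noTC (edgeR adjusted p = 0.044), -0.35 in M-TC (edgeR adjusted p = 0.070) and -0.50 in M-noTC (edgeR adjusted p = 0.042), where the groups overlapped. The call in GM-TC was lost without GM-TC replicate 2 (-0.20, edgeR adjusted p = 0.21) or GM-TC-LPS replicate 2 (-0.31, edgeR adjusted p = 0.10). That in GM-noTC was lost without GM-noTC-LPS replicate 2 (-0.18, edgeR adjusted p = 0.31), GM-noTC replicate 1 (-0.29, edgeR adjusted p = 0.11) or GM-noTC replicate 2 (-0.24, edgeR adjusted p = 0.20). That in M-noTC went to -0.13 without M-noTC-LPS replicate 1 (edgeR adjusted p = 0.63) and to -0.32 without M-noTC replicate 1 (edgeR adjusted p = 0.25), and in M-TC a call appeared without M-TC replicate 2 (-0.47, edgeR adjusted p = 0.048).

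**Figure D3:**
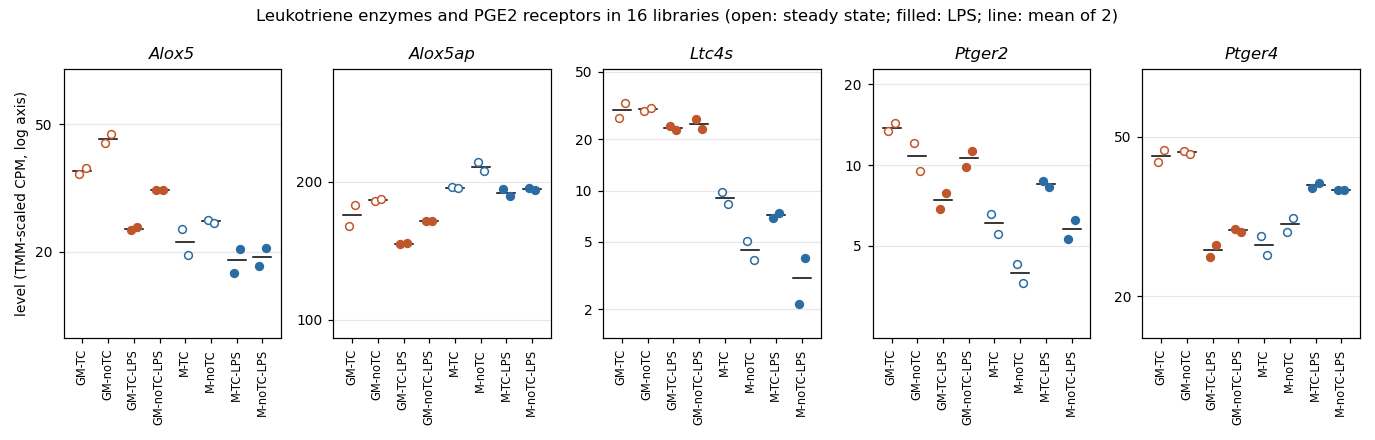
Level of each leukotriene gene and prostaglandin E2 receptor (y axis, TMM-scaled CPM on a log axis) in the 8 groups (x axis), with a point per library, orange for GM and blue for M, open at steady state and filled upon LPS, and a line at the mean of 2. Ltc4s is at 22.6 CPM or more in GM libraries and at 9.85 CPM or less in M libraries, and Ptger4 is highest in the steady state GM libraries.

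The receptor EP4 went opposite ways in GM and M cells upon LPS under TMM scaling, though not under library size alone, and EP2 did so on TC dishes. Ptger4 stood at 43.2 and 46.3 CPM in GM-TC, and GM-noTC had 46.1 and 45.2 CPM. With LPS it went to 25.1 and 26.8 CPM on TC and 29.5 and 28.9 CPM on noTC dishes, below every steady state GM library. M cells had 28.3 and 25.3 CPM on TC and 29 and 31.4 CPM on noTC dishes. With LPS they had 37.3 and 38.3 CPM on TC and 36.8 and 36.8 CPM on noTC dishes, above every steady state M library. The log2 fold changes were -0.79 (GM-TC, standard error 0.073, edgeR adjusted p = 3.0e-09), -0.65 (GM-noTC, standard error 0.070, edgeR adjusted p = 4.2e-08), 0.50 (M-TC, standard error 0.073, edgeR adjusted p = 2.4e-06) and 0.28 (M-noTC, standard error 0.070, edgeR adjusted p = 0.0011). GM minus M accordingly went from 0.74 on TC and 0.59 on noTC at steady state to -0.54 and -0.33 upon LPS. The responses differed by -1.28 on TC (edgeR adjusted p = 1.2e-09) and -0.93 on noTC dishes (edgeR adjusted p = 1.3e-07). Ptger4 shares 82 exon bases with Ttc33 on the opposite strand in GENCODE M21, and the sources used here do not say whether strand was counted.

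Ptger2, at a low level, followed the same order on TC dishes. GM cells went from 13.4 and 14.3 CPM to 6.88 and 7.89 CPM there, and M cells from 6.58 and 5.54 CPM to 8.71 and 8.25 CPM. The log2 fold change of LPS was -0.90 in GM-TC (standard error 0.14, edgeR adjusted p = 7.8e-06) and 0.49 in M-TC (standard error 0.15, edgeR adjusted p = 0.0068), and the responses differed by -1.39 (edgeR adjusted p = 1.2e-05). On noTC dishes GM cells had 12.1 and 9.5 CPM, then 9.85 and 11.3 CPM, and M cells 4.28 and 3.62 CPM, then 5.29 and 6.24 CPM. There the change in GM cells was -0.03 (edgeR adjusted p = 0.86) with overlapping groups, and that in M cells 0.56 (edgeR adjusted p = 0.0045). The rise in M-TC did not pass without M-TC replicate 2 (0.37, edgeR adjusted p = 0.084) or M-TC-LPS replicate 1 (0.45, edgeR adjusted p = 0.052). That in M-noTC did not pass without M-noTC replicate 2 (0.44, edgeR adjusted p = 0.061) or M-noTC-LPS replicate 2 (0.43, edgeR adjusted p = 0.076).

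Both receptors' rises in M cells turned negative when libraries were scaled by their size alone. In M-TC and M-noTC, Ptger2 then had -0.34 and -0.17, the latter not called (edgeR adjusted p = 0.34), and Ptger4 had -0.33 and -0.44. That scaling set the median LPS change of all genes at -0.83 in M-TC, -0.73 in M-noTC, -0.53 in GM-TC and -0.54 in GM-noTC, while TMM scaling set it between -0.05 and -0.01. A change of scaling shifts all genes by about the same amount. That both receptors lay above the median gene in M cells was measured, and that this held under both scalings was fixed by arithmetic. The differences between the growth factors' responses on TC dishes kept their direction for Ptger2 and Ptger4 in both. On noTC dishes that of Ptger2 was -0.37 by library size and not called (edgeR adjusted p = 0.17), in place of -0.59 (edgeR adjusted p = 0.035).

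Ptger2 was higher in GM than in M cells at steady state (1.20 on TC and 1.46 on noTC, edgeR adjusted p = 1.6e-07 and 9.8e-09). Upon LPS this held on noTC dishes (0.87, edgeR adjusted p = 3.4e-05) and not on TC dishes (-0.20, edgeR adjusted p = 0.26). M cells had less on noTC than on TC dishes, with -0.63 at steady state (edgeR adjusted p = 0.0043) and -0.56 upon LPS (edgeR adjusted p = 0.014). The steady state call was lost without M-noTC replicate 2 (-0.50, edgeR adjusted p = 0.080) or M-TC replicate 1 (-0.51, edgeR adjusted p = 0.079), and the LPS call without M-noTC-LPS replicate 1 (-0.44, edgeR adjusted p = 0.15) or M-TC-LPS replicate 1 (-0.51, edgeR adjusted p = 0.099). In GM cells the dish differences of -0.36 and, upon LPS, 0.51 did not pass (edgeR adjusted p = 0.10 and 0.065). The dish difference upon LPS differed between the growth factors by 1.07 (edgeR adjusted p = 0.0021).

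**Figure D4:**
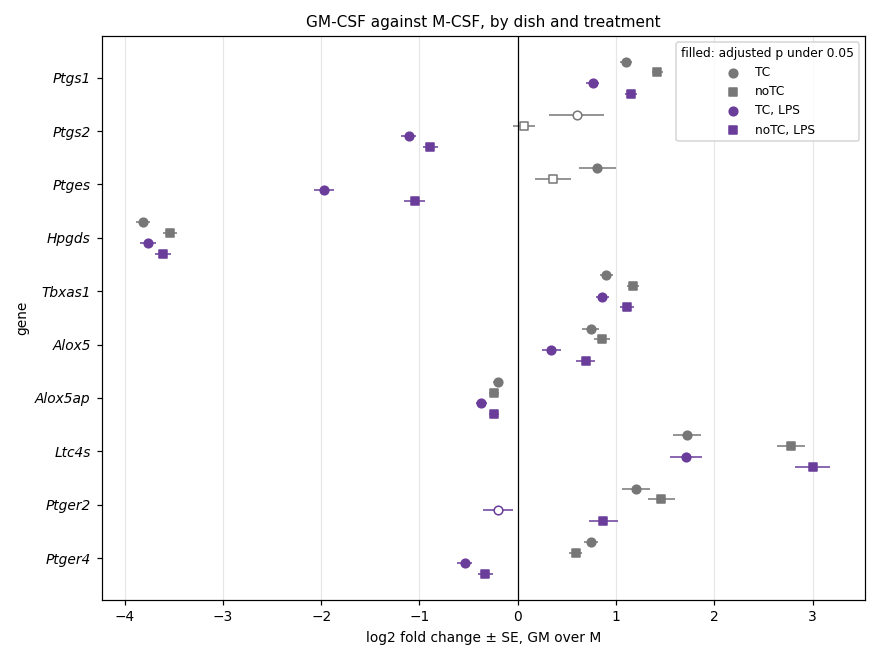
Log2 fold change of GM over M (x axis) for the 10 genes (y axis) by dish and treatment, grey at steady state and violet upon LPS, with bars of 1 standard error and filled points at an adjusted p under 0.05. Hpgds lies between -3.81 and -3.54 and Ltc4s between 1.71 and 3.00, while Ptgs2, Ptges and Ptger4 change sides between steady state and LPS on both dishes and Ptger2 does on TC dishes.

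Counted over the 10 genes, more fell than rose upon LPS in GM cells, while M cells had both directions. In GM-TC, 2 genes were higher and 8 lower, where 32.8% and 34.2% of all tested genes were called in those directions. In GM-noTC, 2 were higher and 7 lower, against 33.6% and 34%. M-TC had 4 higher and 3 lower, against 37.6% and 36.4%, and M-noTC 4 higher and 6 lower, against 36.4% and 35.9%. The median log2 fold change of the 10 genes was -0.48, -0.32, -0.12 and -0.23 in these 4 cultures, and that of all tested genes lay between -0.05 and -0.01. Scaled by library size alone, lower calls made up 78.5% to 81% of all calls in place of 49.1% to 51.1%, and 8, 8, 8 and 7 of the 10 genes were lower. With so many genes called, these counts alone set the 10 genes little apart.

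Between the growth factors, GM cells were higher for 7 and lower for 2 of the 10 genes on TC dishes at steady state, where 32.6% and 28.9% of all genes were called. On noTC dishes 6 were higher and 2 lower, against 31.4% and 30.7%. Upon LPS, 4 were higher and 5 lower on TC (33.9% and 32.9% of all genes) and 5 and 5 on noTC dishes (33.5% and 32.6%). Scaled by library size alone, lower calls were 72.1% (TC) and 72.5% (noTC) of all steady state calls in place of 47% and 49.4%, while the counts of the 10 genes stayed at 7 and 2 and at 6 and 2.

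Fewer genes changed with the dish, which at steady state cannot be told apart from the difference in heart muscle transcripts given above. In GM cells 2 of the 10 were higher and 0 lower on noTC dishes at steady state, against 4.69% and 2.85% of all genes, and upon LPS again 2 and 0, against 2.08% and 0.727%. At an unadjusted p under 0.05, edgeR had 2 of the 10 lower at steady state and 0 upon LPS, and DESeq2 called 0 lower in both. Without GM-TC replicate 1 the number of all genes called at steady state went from 944 to 2007. In M cells 2 were higher and 5 lower at steady state, against 16.1% and 11.1%, and 0 higher and 4 lower upon LPS, against 10.4% and 12.9%. In the latter, 0 were higher at an unadjusted edgeR p under 0.05 and 0 by DESeq2. For M cells upon LPS, scaling by library size alone made lower calls 29.5% of all calls in place of 55.5%, with 3 of the 10 lower. Tests of a difference between effects called 6 of the 10 for the LPS response in GM against M on TC (41.1% of all genes) and 5 on noTC dishes (36.2%), all smaller or more negative in GM cells under TMM scaling. They called 2 for the LPS response by dish in GM (0.783%) and 2 in M cells (10.6%), and 2 and 4 for the dish difference by growth factor at steady state (11.2%) and upon LPS (10.6%). Scaled by library size alone, the median difference of the LPS responses over all genes was 0.30 on TC and 0.19 on noTC dishes, and lower calls were 21.1% and 26.8% of all calls in place of 56.8% and 53.4%. The calls among the 10 genes were then 2 higher and 4 lower on TC and 1 and 3 on noTC dishes, with Ptgs1 at 0.00 (edgeR adjusted p = 0.98) on TC. The share of lower calls also moved from 70.6% to 38.9% for the LPS response by dish in M cells and from 35% to 67.1% for the dish difference by growth factor upon LPS, where the 10 genes had 2 lower and 3 higher calls.

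**Figure D5:**
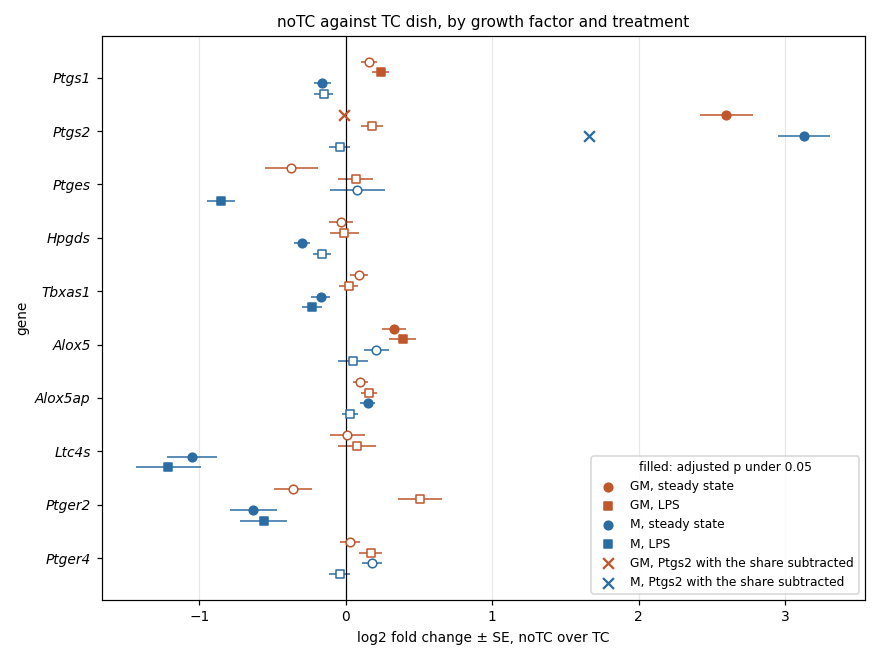
Log2 fold change of noTC over TC dishes (x axis) for the 10 genes (y axis) by growth factor and treatment, with bars of 1 standard error and filled points at an adjusted p under 0.05. Crosses give Ptgs2 at steady state after the share of other libraries was subtracted, at -0.01 in GM and 1.66 in M cells in place of 2.60 and 3.13.

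Of 57 other genes of the pathway, 40 passed the filter on low counts. LPS called 11 of the 40 higher and 12 lower in GM cells on either dish, and in M cells 17 and 11 on TC and 15 and 9 on noTC dishes, where 32.8% to 37.6% of all genes were higher and 34.2% to 36.4% were lower on TC dishes, and 33.6% to 36.4% and 34% to 35.9% on noTC dishes, with medians between -0.12 and 0.12. Abcc1, which exports leukotriene C4, rose in every culture, from 86.6 to 266 CPM in GM-TC (log2 fold change 1.62, edgeR adjusted p = 6.3e-16) and from 161 to 560 CPM in M-TC (1.80, edgeR adjusted p = 3.1e-17). Cysltr2, a receptor for cysteinyl leukotrienes, rose from 1.94 to 4.65 CPM in GM-TC (1.27, edgeR adjusted p = 0.0017) and from 0.453 to 2.5 CPM in M-TC (2.40, edgeR adjusted p = 6.1e-05). Pla2g15, the lysosomal phospholipase A2, fell in every culture, from 164 to 54.5 CPM in GM-TC (-1.59, edgeR adjusted p = 5.0e-16) and from 90.6 to 14.8 CPM in M-TC (-2.61, edgeR adjusted p = 9.0e-19). Hpgd, which degrades prostaglandins, fell from 79.4 to 28 CPM in M-TC (-1.50, edgeR adjusted p = 1.3e-11) and from 12.7 to 5.23 CPM in GM-TC (-1.30, edgeR adjusted p = 3.3e-07). Ptgir, the prostacyclin receptor, fell from 240 to 76.3 CPM in GM-TC (-1.65, edgeR adjusted p = 1.1e-15) and from 226 to 81.8 CPM in GM-noTC (-1.46, edgeR adjusted p = 8.5e-15). In M cells it rose under TMM scaling, from 17 to 32 CPM on TC (0.92, edgeR adjusted p = 2.1e-09) and from 21.1 to 26 CPM on noTC dishes (0.30, edgeR adjusted p = 0.0024). Ptger3, the receptor EP3, fell from 2.45 to 0.550 CPM in M-TC (-2.18, edgeR adjusted p = 4.4e-05).

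Between growth factors, 23 of these 40 genes were higher and 10 lower in GM cells at steady state on either dish, and 21 and 11 upon LPS, where 31.4% to 33.9% of all genes were higher and 28.9% to 32.9% were lower, with medians between 0.32 and 0.53. The prostaglandin transporter Slco2a1 had 9.09 and 9.58 CPM in GM-TC and 10.4 and 8.72 CPM in GM-noTC, and no M library exceeded 0.0748 CPM, which is under the level of 3 counts. Ltb4r1, the receptor for leukotriene B4, had 5.15 and 4.95 CPM in GM-TC and 8.56 and 8.17 CPM in GM-noTC, against at most 0.135 CPM in M libraries. Alox12, a 12-lipoxygenase, had a mean of 1.88 CPM in GM-TC and 0.0399 CPM in M-TC. The prostacyclin synthase Ptgis had 2.93 and 2.78 CPM in GM-TC and at most 0.120 CPM in M libraries. M cells had more Hpgd, with 79.4 against 12.7 CPM on TC dishes (GM minus M -2.64, edgeR adjusted p = 5.1e-15). They also had more Cysltr1, the other cysteinyl leukotriene receptor, upon LPS, with 64.7 against 13.4 CPM on TC (-2.27, edgeR adjusted p = 2.4e-16). On noTC dishes 6 of the 40 were higher and 1 lower in GM cells at steady state (4.69% and 2.85% of all genes), and 11 and 7 in M cells (16.1% and 11.1%). Upon LPS, 3 were called in GM cells, each of them higher (2.08% of all genes), and 2 were higher and 6 lower in M cells (10.4% and 12.9%). Of those at 1 CPM or more in the higher group, the only one called past a log2 fold change of 1 with groups apart was Ptger3, at 0.707 and 0.564 CPM in GM-TC and 2.12 and 1.33 CPM in GM-noTC (1.44, edgeR adjusted p = 0.025).

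Across the 16 libraries, the gene with the pattern most like that of Ptgs2 on the log2 scale was Nos2, inducible nitric oxide synthase (Pearson r = 0.997), followed by Edn1, endothelin-1 (r = 0.996). The closest to Ptges were Ist1 and Bfar (r = 0.993 and 0.992), to Hpgds Rgs10 and P3h3 (both r = 0.991) and to Ptgs1 Atg7 and Il1r1 (both r = 0.988). Those closest to Tbxas1 were Pttg1ip and Ksr1 (r = 0.990 and 0.989), to Ltc4s Scamp1 and Cd33 (r = 0.981 and 0.980), to Alox5ap Racgap1 and Hmgn1 (r = 0.969 and 0.964) and to Alox5 Pde3b and Zranb3 (r = 0.964 and 0.954). The closest to Ptger4 were Map2k3 and Gadd45g (r = 0.955 and 0.947). The 16 points share 8 groups of 2 and the scaling of each library, so these values describe the pattern only.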

How the data were processed

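RNA-seq of 16 libraries was analysed. Poly(A) RNA was sequenced, and the authors used HISAT2 for alignment and RSEM for abundance. What they deposited are RSEM expected counts per gene, not normalized. The build and annotation release are not given in the sources used here. Expected counts were rounded. The study calls the 2 libraries of a group biological replicates. Whether they came from separate mice, and whether same-numbered libraries shared a mouse, is not given in the sources used here, so p-values measure the spread between these libraries. Groups came from the sample labels.

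Genes passing edgeR's expression filter by group (12514 of 22287) were scaled with TMM factors and fitted in 1 quasi-likelihood model over 8 groups (edgeR 4.0.16, R 4.3.3), without a replicate block. Genes were called at a Benjamini-Hochberg adjusted p under 0.05. Standard errors were taken from the log2 fold change and the F statistic. CPM per kb used GENCODE M21 exon lengths, and 22253 of 22287 IDs matched. The floor is 3 counts and covers counting error only. The fit and the estimate of the share of other libraries were tested on simulated data, and the subtraction itself was not. P-values after subtraction treat the share as known. For the share, the simulation set the own level of the noTC steady state libraries to that of TC. Alternatives were DESeq2 1.42.0, other size factors, library size only, no filter, a replicate block, only the libraries compared, subtraction of a share of other libraries, the study's rule of a fold change above 2 with p under 0.05, and leaving out each replicate.

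All 10 genes were reported in each comparison. Of the 57 other pathway genes, up to 3 per direction could be named, past the threshold with an absolute log2 fold change of 1 or more, 1 CPM or more and no overlap between groups. For each gene the 2 most correlated genes were named, except for Ptger2, for which this is not reported here. Genes, lists and tests were chosen with earlier results of these data known, and the heart muscle list and motifs after the data were seen.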

Additional observations from a re-analysis of the deposited data

Results flagged for a closer look

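For 21 differences of effects, 1 effect differed between 2 kinds of cells or dishes in edgeR's test of the difference itself, on the log2 scale and with Benjamini-Hochberg adjusted p-values over all genes. The LPS response was more negative or smaller in GM than in M cells on TC dishes for Ptgs1 (-0.34, adjusted p = 0.0024), Ptgs2 (-1.71, adjusted p = 4.8e-05), Ptges (-2.78, adjusted p = 7.1e-10), Alox5 (-0.40, adjusted p = 0.019), Ptger2 (-1.39, adjusted p = 1.2e-05) and Ptger4 (-1.28, adjusted p = 1.2e-09). On noTC dishes it was so for Ptgs1 (-0.27, adjusted p = 0.014), Ptgs2 (-0.95, adjusted p = 7.9e-06), Ptges (-1.41, adjusted p = 1.2e-05), Ptger2 (-0.59, adjusted p = 0.035) and Ptger4 (-0.93, adjusted p = 1.3e-07).

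The LPS response on noTC minus that on TC dishes was -2.42 for Ptgs2 (adjusted p = 5.0e-08) and 0.87 for Ptger2 (adjusted p = 0.036) in GM cells. In M cells it was -3.18 for Ptgs2 (adjusted p = 6.5e-10) and -0.94 for Ptges (adjusted p = 0.0059). After the share of other libraries was subtracted, Ptgs2 had 0.19 in GM (adjusted p = 0.93), -1.70 in M cells (adjusted p = 0.00054) and 0.18 for GM minus M on noTC dishes (adjusted p = 0.67). The dish difference in GM minus that in M cells was 0.32 for Ptgs1 (adjusted p = 0.012) and 1.06 for Ltc4s (adjusted p = 0.0013) at steady state. Upon LPS it was 0.39 for Ptgs1 (adjusted p = 0.0052), 0.92 for Ptges (adjusted p = 0.00025), 1.29 for Ltc4s (adjusted p = 0.0017) and 1.07 for Ptger2 (adjusted p = 0.0021).

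Of these 21 calls, 14 passed in each fit that left out 1 library. Ptger2 in GM cells by dish did not pass in 6 of 8 such fits (0.71 to 1.07, adjusted p up to 0.23), Ptger2 on noTC dishes in 4 of 8 (-0.75 to -0.39, adjusted p up to 0.20), Alox5 in 3 of 8 (-0.52 to -0.26, adjusted p up to 0.15) and Ptgs1 on noTC dishes in 3 of 8 (-0.37 to -0.16, adjusted p up to 0.17). Ptgs1 by dish upon LPS did not pass without M-noTC-LPS replicate 2 (0.29, adjusted p = 0.050).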

How the results depend on the processing

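With 2 libraries a group, many calls near the threshold moved, and scaling or subtraction also moved calls far from it. After subtraction, Ptgs2 for the LPS response by dish in GM went from an edgeR adjusted p of 5.0e-08 to 0.93. Over the alternatives to the 180 results of single genes, 2256 values kept their call or lack of one, 94 lost the call and 36 gained one. A further 14 changed sign and were called before or after the change of setting. Values called in neither fit could change sign and still count among the 2256. The 86 calls counted next leave out Tbxas1 for the dish in M cells at steady state, called in the main fit at an edgeR adjusted p of 0.050. Of 86 calls between 2 groups, 69 passed in each fit that left out 1 library.

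Scaling by library size only turned the LPS change negative for Ptger4 (-0.33 in M-TC, -0.44 in M-noTC) and for Ptger2 in M-TC (-0.34), with an edgeR adjusted p of 0.045 or less. In M-noTC Ptger2 had -0.17 and was not called (edgeR adjusted p = 0.34). The LPS response in GM minus M on TC was then 0.00 for Ptgs1 (edgeR adjusted p = 0.98). For Tbxas1 it was 0.30 (edgeR adjusted p = 0.014), in place of -0.04 (edgeR adjusted p = 0.76). Subtracting a share from the 4 noTC steady state libraries, or from 12 libraries, made Ptgs2 a call for GM minus M on noTC at steady state. It had -1.07 in both (edgeR adjusted p = 0.00078 and 0.00080), in place of 0.06 (edgeR adjusted p = 0.66). Its calls were lost for the dish in GM at steady state (-0.01 in both) and for the LPS response in GM minus M on noTC (0.18 in both, edgeR adjusted p = 0.67). That for the LPS response in noTC minus TC in GM was lost too (0.19 in both, edgeR adjusted p = 0.93). The cause was not tested.

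With a fold change above 2 and unadjusted p under 0.05, the genes called were 3, 3, 2 and 2 for LPS on TC and noTC dishes in GM and then in M cells, 4 and 5 for GM minus M on TC and noTC at steady state and 4 and 5 upon LPS. Among all genes, 26.3% to 36.1% passed this rule for LPS and 22.2% to 25.5% for GM minus M. The 10 genes had 1 and 2 for the dish in GM and M at steady state and 0 and 1 upon LPS (1.16% to 4.32% of all genes). For differences of effects they had 4 and 1 (LPS, GM minus M on TC and noTC, 13.9% and 11.5% of all genes), 1 and 1 (LPS by dish in GM and M) and 1 and 2 (dish by growth factor, steady state and LPS), with 1.55% to 3.25% of all genes.

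The counts that follow are at an adjusted p under 0.05. For the dish in GM at steady state, 1 gene in place of 2 was called after either subtraction or with only the libraries compared, and 1 to 3 with a replicate left out. For the dish in M at steady state, 4 in place of 7 were called without the filter and 3 to 5 with a replicate left out. For the dish in GM upon LPS, in place of 2, 1 was called with library size only, 4 without the filter, 4 with only the libraries compared and 0 to 0 with a replicate left out, and for the dish in M upon LPS 2 to 4 in place of 4. The LPS response by dish in GM called, in place of 2, 1 with DESeq2, 0 after either subtraction, 1 with only the libraries compared and 1 to 2 with a replicate left out, that in M 1 to 2 in place of 2, and the dish by growth factor at steady state 1 to 4 in place of 2. A group with 1 library left was assumed to vary like the others.

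Correlations of same-numbered deviations lay between -0.064 and 0.086 over 28 pairs of groups. With 2 libraries a group these deviations also hold counting error, so they cannot show whether same-numbered libraries shared a mouse. A replicate block left 177 of 180 results on their side of the threshold. It moved Ltc4s upon LPS in GM-noTC to an adjusted p of 0.051, Ptgs2 in GM minus M on TC at steady state to 0.050 and Tbxas1 in the dish by growth factor at steady state to 0.045, all by edgeR.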
